A study of Mus musculus with 4 samples.

Results

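The BCL2 family decides at the mitochondrion whether a cell lives or dies, and the genes described here are 10 of its members, chosen by name: the survival genes Bcl2, Bcl2l1 and Mcl1, the pore formers Bax and Bak1, and the BH3-only genes Bcl2l11, Bbc3, Pmaip1, Bid and Bad. For each gene the probe set with 1 gene symbol and the highest mean over the 4 arrays was read, out of 22180 genes with such a probe set. Values were obtained for 9 of the 10 members, and Bax was not analysed here. RNA was measured in 4 mouse CD4 T lineage populations with 1 Affymetrix array each, all from animals with a C57BL/6 background aged 8 weeks. Natural Th1 cells (nTh1) were CD4+CD62L+CXCR3+ thymocytes of CIITAtg mice, which carry a transgene of CIITA, the activator of MHC class II genes. Classical Th1 cells (cTh1) were wild-type spleen CD4+CD62Lhi cells kept in culture for 5 days on anti-CD3/CD28 beads, with IL-4 blocked by an antibody and with 50 U/ml IL-2 and 2 ng/ml IL-12 added. TT naive cells were CD4+CD62L+CXCR3- thymocytes of CIITAtg mice, and naive cells were wild-type spleen CD4+CD62Lhi cells. The labels used here do not say which promoter drives the transgene or how many animals were pooled.

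The family works by binding between its own members. Survival proteins such as BCL2, BCL-XL (from Bcl2l1) and MCL1 hold the pore formers BAX and BAK in check, and BH3-only proteins such as BIM (from Bcl2l11), PUMA (Bbc3) and NOXA (Pmaip1) bind the survival proteins or engage the pore formers, so that cytochrome c leaves the mitochondrion and caspases are activated. In T cells BIM is known for the removal of self-reactive thymocytes and of activated cells at the end of a response, and BCL2 and MCL1 for keeping naive and memory cells alive under IL-7 and IL-15. The proteins are also controlled after translation, which arrays do not measure.

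The member whose signal differed most between the populations was Bcl2l11. Its upstream sequence is printed with that of Bcl2, whose signal differed little, so that the promoters of a BH3-only gene and of its binding partner can be set side by side. The windows run 5′ to 3′ on the gene's strand from 250 bases before to 50 bases after an annotated start, and come from RefSeq on GRCm38.p6. Bcl2l11 has 2 annotated starts in that table, on the + strand at chr2:128125788-128126087 and chr2:128127325-128127624, and Bcl2 has 1, on the - strand at chr1:106714241-106714540. Capitals mark matches to the FOXO motif GTAAACA on either strand.
Bcl2l11, first start: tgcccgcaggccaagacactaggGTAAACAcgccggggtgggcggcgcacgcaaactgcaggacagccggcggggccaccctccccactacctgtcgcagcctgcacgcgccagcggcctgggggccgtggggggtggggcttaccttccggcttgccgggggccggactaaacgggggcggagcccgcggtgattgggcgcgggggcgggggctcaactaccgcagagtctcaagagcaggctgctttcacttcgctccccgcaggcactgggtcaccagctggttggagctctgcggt
Bcl2l11, second start: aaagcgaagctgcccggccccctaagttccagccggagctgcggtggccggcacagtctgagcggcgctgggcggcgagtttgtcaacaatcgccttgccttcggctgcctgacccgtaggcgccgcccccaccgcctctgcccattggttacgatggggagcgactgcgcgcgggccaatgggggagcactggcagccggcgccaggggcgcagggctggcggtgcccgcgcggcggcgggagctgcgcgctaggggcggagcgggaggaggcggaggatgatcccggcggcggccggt
Bcl2: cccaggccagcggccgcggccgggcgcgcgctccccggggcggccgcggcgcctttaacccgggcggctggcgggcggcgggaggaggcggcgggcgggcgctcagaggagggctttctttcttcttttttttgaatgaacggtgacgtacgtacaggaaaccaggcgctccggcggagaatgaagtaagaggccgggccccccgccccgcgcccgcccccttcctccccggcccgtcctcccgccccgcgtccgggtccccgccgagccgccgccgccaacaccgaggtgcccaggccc

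The FOXO factors, which are held in the cytoplasm by AKT signalling, are known activators of Bcl2l11. The motif occurred once before the first Bcl2l11 start, beginning 227 bases upstream, and in neither of the other windows printed. It also occurred in 1 of the Bbc3 windows, 167 bases upstream of that start, and in none of the other members' windows. Among all 32851 promoter windows of the same length, 3.65% held it. The same windows were searched on both strands for the STAT motif TTCNNNGAA, the E2F motifs TTTGGCGC and TTTCCCGC, the E-box CACGTG and the p53 decamer by its name alone, and the printed sequences held no match to any of these. A promoter window was read for 9 members, Bax included and Pmaip1 not, with 15 windows in all. Of the 15, 2 held the FOXO motif, 0 the STAT motif, found in 8.30% of all windows, and 0 an E2F motif, found in 1.56%. The E-box, at 7.15% of all windows, was in 2 of the 15, 1 of Bbc3 and 1 of Bax, and the p53 decamer, at 8.36%, in 1, that of Bax. A match in these windows is a description of the letters, and no binding was measured.

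Before the members are read, the arrays themselves need a check. Cd4 lay between 12.33 and 12.72 and the 8 measured T cell genes between 10.86 and 13.11 on all 4 arrays. Cxcr3, the gene of the sorting marker, was at 9.91 in nTh1, 10.53 in cTh1, 7.76 in TT naive cells and 9.80 on the array labelled naive. The last value goes against that label, as does Eomes, a T-box factor of effector and memory cells, at 10.03 there, and that array is called the array labelled naive below. The Y-linked gene Eif2s3y was at 5.16 in nTh1 and 4.97 in cTh1, against 8.55 in TT naive and 8.61 on the array labelled naive, so the 2 Th1 arrays differ from the other 2 in Y-linked transcripts too. B cell markers were higher in cTh1, with a summed linear signal over 9 genes of 1480 in nTh1, 5877 in cTh1, 862 in TT naive and 954 on the array labelled naive. The summed linear signal over 12 myeloid markers was highest in nTh1, with 4102, 2037, 1570 and 2853 in the same order. Not every marker followed the sum. Itgam peaked in TT naive, with 7.99 against 7.36 in nTh1, and Fcer1g on the array labelled naive, with 9.57 against 8.75. The other myeloid markers peaked in nTh1, but C1qa only narrowly, with 8.02 against 7.97 on the array labelled naive. With 1 array a group no test could be made, and the only error that could be measured is the spread of log2 differences among probe sets that read the same gene (their SD, called the probe set SD below), which leaves out animals, sorts and arrays. In bulk RNA, fewer cells of a type and less RNA per cell cannot be told apart.

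**Figure D1:**
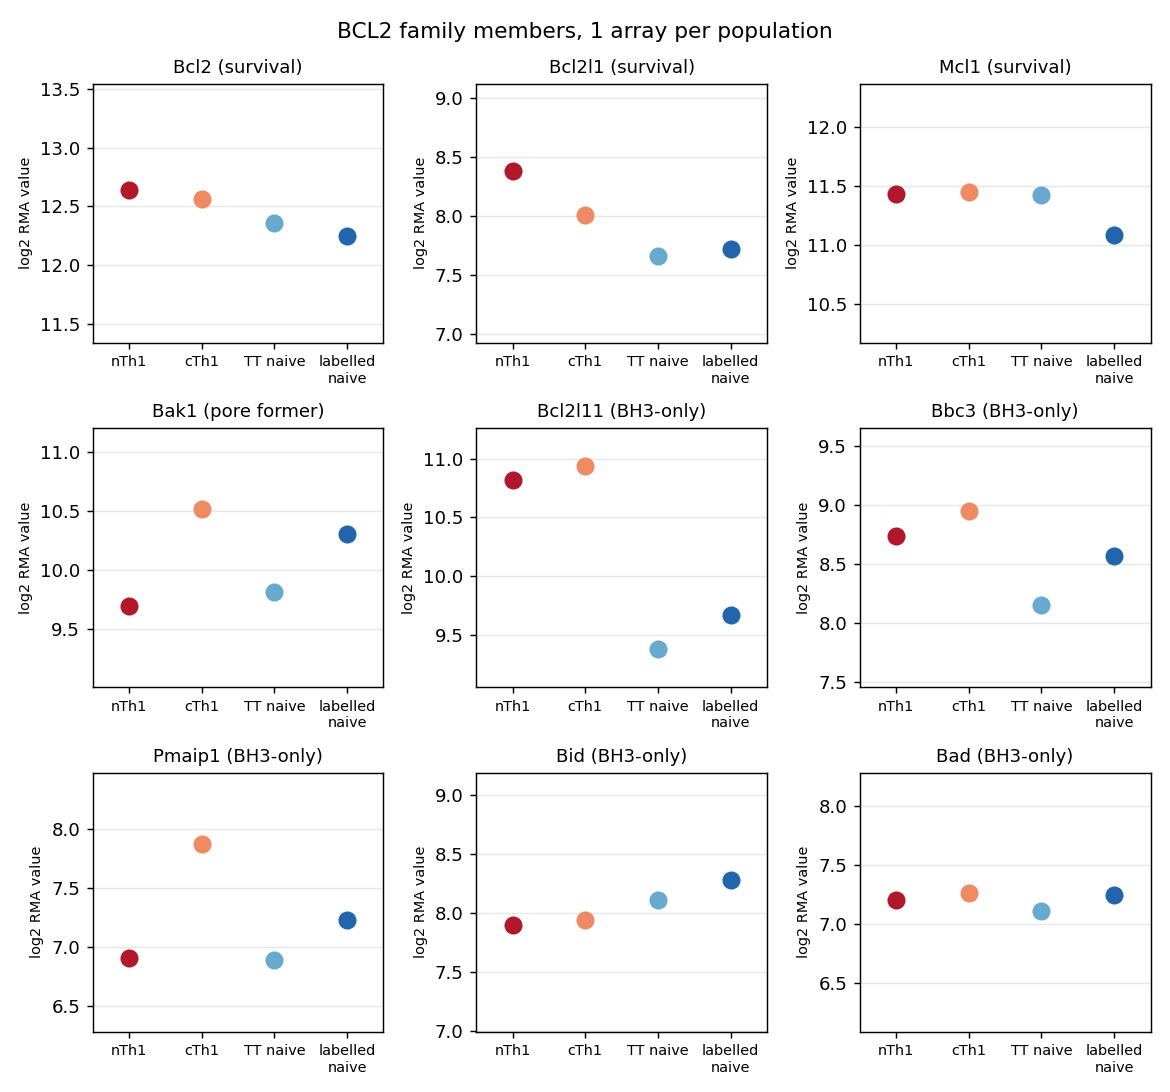
Log2 RMA value (vertical axis, 2.2 log2 units in every panel) of the 9 measured members on the arrays of nTh1, cTh1, TT naive and labelled naive cells, 1 point per array and no error bars because each population has 1 array. Bcl2l11 sits at 10.82 and 10.94 in nTh1 and cTh1 and at 9.38 and 9.67 on the other arrays, while Bcl2, Mcl1, Bid and Bad stay within 0.40 log2 units.

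Of the survival genes, Bcl2 and Mcl1 gave similar signals in all 4 populations, and Bcl2l1 was higher in nTh1. Bcl2, which encodes the survival protein that IL-7 signals maintain, read 12.64 in nTh1, 12.57 in cTh1, 12.36 in TT naive and 12.25 on the array labelled naive. Its full range was 0.40 on the log2 scale, or 1.32-fold. Both Th1 arrays lay above both others, by more than the probe set SD for nTh1 and by less than it for cTh1. A second Bcl2 probe set, not used for the gene, read 6.78, 6.59, 6.70 and 6.49 in the same order, close to the level filter of 6.61 (the median of all values), and did not keep that order, since TT naive lay above cTh1.

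Mcl1, whose short-lived protein most lymphocytes need, read 11.43 in nTh1, 11.45 in cTh1, 11.42 in TT naive and 11.08 on the array labelled naive. The first 3 of these arrays lay within 0.03 of each other, and the array labelled naive was lowest. The second Mcl1 probe set also had its lowest value there, at 7.32, against 7.53 in nTh1, 7.50 in cTh1 and 7.47 in TT naive. Bcl2l1, the gene of BCL-XL, read 8.38 in nTh1, 8.00 in cTh1, 7.66 in TT naive and 7.72 on the array labelled naive. The nTh1 array was highest, and TT naive and labelled naive differed by 0.06, less than the probe set SD of 0.304 for that pair.

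Bcl2l11, the gene of BIM, read 10.82 in nTh1 and 10.94 in cTh1, against 9.38 in TT naive and 9.67 on the array labelled naive. The Th1 arrays lay together, 0.12 apart, and more than 1 log2 unit above both others, which were 0.29 apart. Bbc3, the gene of PUMA, a BH3-only protein known as a target of p53 and FOXO factors, had the same order with smaller steps, at 8.74 in nTh1, 8.95 in cTh1, 8.15 in TT naive and 8.57 on the array labelled naive. The Bbc3 value on the array labelled naive was 0.17 under nTh1, within the probe set SD of 0.368, so the Th1 arrays do not stand apart there.

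Pmaip1 and Bak1 were highest in cTh1, with the array labelled naive next. Pmaip1, the gene of NOXA, which binds MCL1, read 6.90 in nTh1, 7.87 in cTh1, 6.89 in TT naive and 7.23 on the array labelled naive. The thymic arrays were 0.01 apart. Bak1, the pore former that survival proteins restrain, read 9.69 in nTh1, 10.51 in cTh1, 9.81 in TT naive and 10.31 on the array labelled naive, so both spleen-derived arrays lay above both thymic ones. Spleen and thymus here also stand for wild-type and CIITAtg mice, which cannot be told apart.

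Bid and Bad, whose proteins are controlled by cleavage and phosphorylation, differed little. Bid, which caspase 8 cuts to link death receptors with the mitochondrion, read 7.90 in nTh1, 7.95 in cTh1, 8.11 in TT naive and 8.28 on the array labelled naive, and was the 1 member with its lowest values on the Th1 arrays. Bad read 7.20, 7.26, 7.11 and 7.24 in the same order, a range of 0.15. A further probe set that is shared by Bad and Gpr137 read 7.64 in nTh1, 8.50 in cTh1, 7.78 in TT naive and 7.98 on the array labelled naive. It cannot be assigned to either gene, and Bad's own probe set did not show that cTh1 value.

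Among the CD4 thymocytes of CIITAtg mice, nTh1 and TT naive cells differ by their sort on CXCR3. Their arrays also differ in Y-linked transcripts, with Eif2s3y at -3.39, and the sort and this difference cannot be told apart. Bcl2l11 was higher in nTh1 by 1.44 on the log2 scale, Bcl2l1 by 0.72 and Bbc3 by 0.58. Of the 9 measured members, all of which passed the level filter, 1 was at least 2-fold higher (Bcl2l11) and 0 were at least 2-fold lower, where 1.41% of 12435 genes were that much higher and 1.09% that much lower. The probe set SD of this comparison was 0.257, which 4 members exceeded: Bcl2l11, Bcl2l1, Bbc3 and, narrowly, Bcl2 at 0.28. A difference as large as that of Bcl2l11 in either direction was seen in 0.957% of the genes, one as large as that of Bcl2l1 in 5.42% and one as large as that of Bbc3 in 8.47%. Mcl1 and Pmaip1 differed by 0.01 each, Bad by 0.10, Bak1 by -0.12 and Bid by -0.21. The median over the members was 0.10, against -0.05 over all genes tested.

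Within these arrays Bcl2l11 and its partners did not move equally. The Bcl2l11 difference exceeded that of Bcl2 by 1.15 and that of Mcl1 by 1.43. Against Bcl2l1 the excess was 0.71. Markers of other cells differed between the same arrays, with 8 of 12 myeloid markers at least 2-fold higher in nTh1, among them Lyz2 at 3.38, and 3 of 8 immature thymocyte markers, among them Cd24a at 2.19. On the TT naive array 6 of the 12 myeloid markers were under the level filter, Lyz2 at 6.05 among them, so that some passed the filter only through nTh1. Their part in the Bcl2l11 value was not tested.

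**Figure D2:**
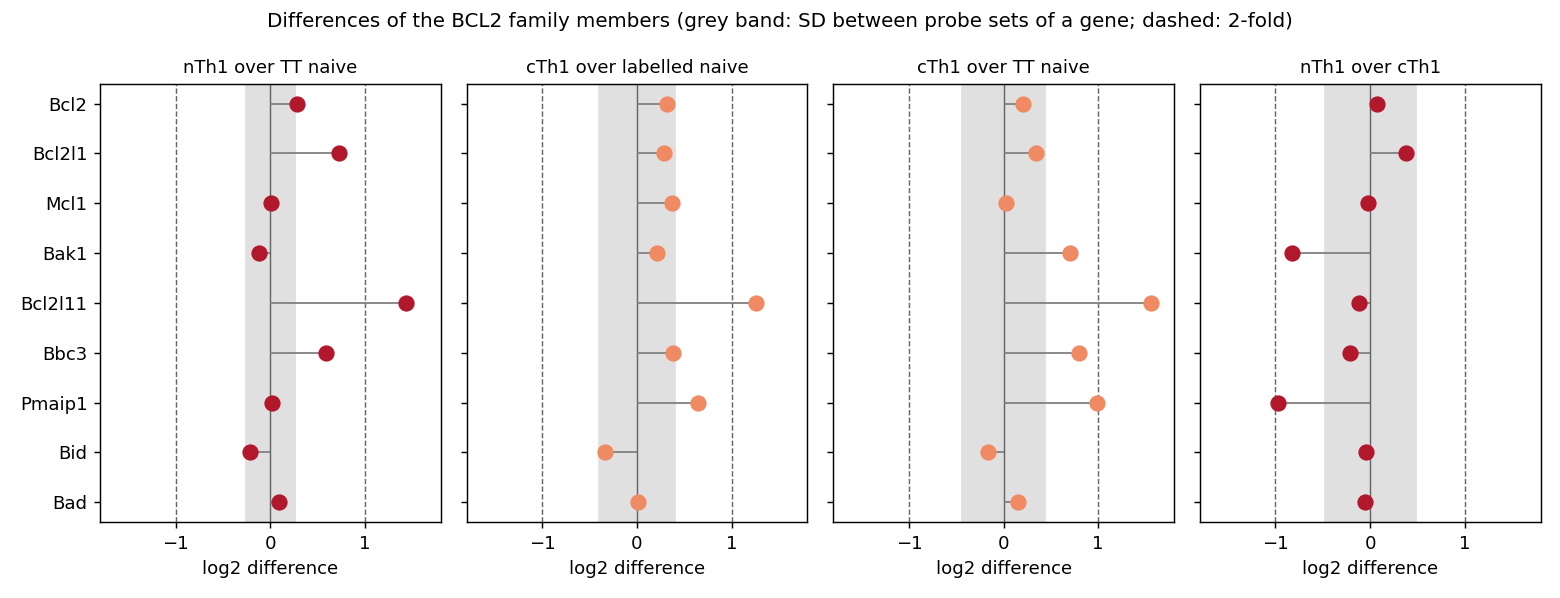
Log2 difference (horizontal axis) of each measured member in nTh1 over TT naive, cTh1 over labelled naive, cTh1 over TT naive and nTh1 over cTh1, with grey bands at the probe set SD and dashed lines at 2-fold. Bcl2l11 passes the 2-fold line in the first 3 comparisons, at 1.44, 1.26 and 1.55, and no member passes it in the last.

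The cultured cells were examined by setting cTh1 against the array labelled naive. That comparison was read beside cTh1 over TT naive because of the values that go against the naive label. Neither comparison isolates culture, since Y-linked transcripts differed in both, with Eif2s3y at -3.63 and -3.58 in the same order. TT naive cells also came from the thymus of CIITAtg mice, and cTh1 from wild-type spleen. Culture and these other differences cannot be told apart. The 2 comparisons share the cTh1 array. Bcl2l11 was higher in cTh1 by 1.26 against the array labelled naive and by 1.55 against TT naive, or 2.40-fold and 2.93-fold. It was the 1 member at least 2-fold higher in each, and 0 were at least 2-fold lower. Against the array labelled naive, 5.13% of all genes passed 2-fold upward in cTh1 and 3.35% downward, and against TT naive 7.24% did so upward and 3.02% downward, so 1 of 9 is near the share of all genes. A difference as large as that of Bcl2l11 was seen in 5.34% of 12835 genes in the first comparison and in 4.19% of 12728 in the second.

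Pmaip1 was just under the 2-fold line against TT naive, at 0.98, and was higher by 0.64 against the array labelled naive. Bbc3 was higher by 0.80 and 0.38 in the same order, and Bak1 by 0.70 and 0.21. Against TT naive, where the probe set SD was 0.440, these 3 genes and Bcl2l11 exceeded it, and against the array labelled naive, with an SD of 0.402, Bcl2l11 and Pmaip1 did. The survival genes stayed within it in both: Bcl2 was at 0.21 against TT naive and 0.32 against the array labelled naive, Bcl2l1 at 0.34 and 0.28, and Mcl1 at 0.03 and 0.37. Bid was at -0.17 and -0.34, and Bad at 0.15 and 0.01. The members' median was 0.34 against TT naive and 0.32 against the array labelled naive, beside 0.03 and -0.02 over all genes tested. The Bcl2l11 difference exceeded that of Bcl2 by 1.34 against TT naive and by 0.94 against the array labelled naive.

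Other cells' markers differed here as well. Of 9 measured B cell markers, 7 were at least 2-fold higher in cTh1 against either array, with Cd79a at 3.79 and 3.76, and of 5 CD8 markers 4 were, with Gzmk at 4.33 and 3.74. The fifth CD8 marker, Eomes, was at -0.90 in cTh1 over TT naive and at -2.09 over the array labelled naive. On the TT naive array 5 of the 9 B cell markers were under the level filter, and on the array labelled naive 4 were. Cd79a was among them on both, at 6.50 and 6.53. Of the CD8 markers Cd8a was under it on both, at 6.22 and 6.31. These markers passed the filter only through cTh1. Of 13 cell cycle genes, 9 were at least 2-fold higher in cTh1 than in TT naive, and 1 than on the array labelled naive. The part of these cells in the members' values was not tested.

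The series title sets natural beside classical Th1 cells. Bcl2l11 was at a similar level in both, with nTh1 minus cTh1 at -0.12, and so were Bcl2 at 0.07, Mcl1 at -0.02, Bid at -0.04 and Bad at -0.05. Pmaip1 and Bak1 were lower in nTh1, at -0.97 and -0.82, or 1.96-fold and 1.77-fold lower, and they were the 2 members beyond the probe set SD of 0.481. Bcl2l1 was at 0.38 and Bbc3 at -0.21, both within it. Of the 9 members 0 were at least 2-fold higher and 0 lower, while 3.46% of 12841 genes were higher and 8.30% lower. The median absolute difference of the members was 0.12, against 0.33 over all genes tested. In each of the other comparisons the members' value was the larger, from 0.21 against 0.18 in nTh1 over TT naive to 0.38 against 0.27 in nTh1 over the array labelled naive. Of 13 cell cycle genes 10 were at least 2-fold lower in nTh1 and 0 higher, with a median of -1.83, and of 9 B cell markers 6 were lower. In nTh1 3 of the 9 B cell markers were under the level filter and passed it only through cTh1. The part of cycling or B cells in the Pmaip1 and Bak1 values was not tested.

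**Figure D3:**
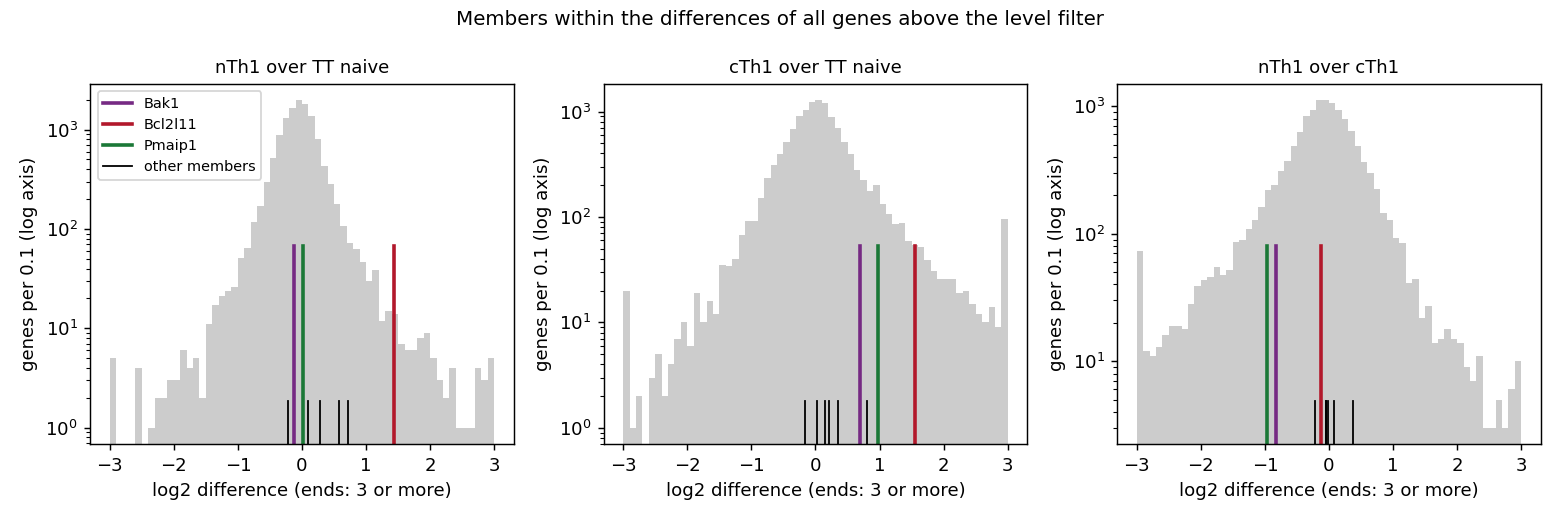
Histograms of the log2 difference of all genes above the level filter (horizontal axis, values beyond 3 gathered at the ends; vertical axis, genes per 0.1 on a log scale) for nTh1 over TT naive, cTh1 over TT naive and nTh1 over cTh1, with the members as vertical lines. Bcl2l11 lies in the upper tail of the first 2 panels at 1.44 and 1.55 and near the centre of the third at -0.12, where Pmaip1 and Bak1 lie at -0.97 and -0.82.

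The remaining pairs place the array labelled naive. TT naive against the array labelled naive had 0 members at least 2-fold higher or lower, where 0.795% of 12582 genes were higher and 2.59% lower. Bak1 was at -0.49, Bbc3 at -0.42, Pmaip1 at -0.34 and Mcl1 at 0.34, each beyond the probe set SD of 0.304, and Bcl2l11 at -0.29 was within it. Cell cycle genes were lower in TT naive in the same comparison, 6 of 13 by at least 2-fold, with a median of -0.98. nTh1 against the array labelled naive had 1 member at least 2-fold higher, Bcl2l11 at 1.14, and 0 lower, where 1.93% of 12754 genes were higher and 4.43% lower. There Bcl2l1 was at 0.66, Bak1 at -0.61, Bcl2 at 0.40 and Bid at -0.38, all beyond the probe set SD of 0.368. Bcl2l11 was thus more than 2-fold higher in each Th1 array than in each of the other 2, and the same division of the arrays was given by the Y-linked genes, so that a difference in the animals' sex and one in the population cannot be told apart for it.

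By the distance between profiles centred on their own mean over the 4 arrays, the genes most like the 3 members with the widest range were named. Candidates were protein-coding genes with a range of at least 1 log2 unit, which leaves out genes that vary as little as Pmaip1 (range 0.98) and Bak1 (0.82) themselves. Closest to Bcl2l11 were Ifngr1, a chain of the interferon gamma receptor, at a distance of 0.124, Nod1, a sensor of bacterial cell wall fragments, at 0.132, and Stat4, which carries the IL-12 signal to the nucleus, at 0.209, where the median distance over 2068 genes was 1.69. Ifngr1 read 12.67 in nTh1, 12.83 in cTh1, 11.35 in TT naive and 11.69 on the array labelled naive. Stat4 read 12.88, 12.79, 11.36 and 11.81 in the same order. Of the 2069 candidates for Pmaip1 the closest were Tmem163, Cep72 and Nanp, at 0.0465, 0.0688 and 0.0763. For Bak1 they were Gstm4 at 0.131, Vdac1 at 0.142 and Nemp1 at 0.150. Vdac1 encodes a channel of the outer mitochondrial membrane, where BAK also resides, and read 10.88 in nTh1, 11.89 in cTh1, 11.14 in TT naive and 11.62 on the array labelled naive. With 4 arrays these distances are descriptions of 4 points each.

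Other genes of the death pathway were read from lists made for this family. Downstream of the pore, 14 of 16 listed caspases, apoptosome parts and their inhibitors were measured. In nTh1 over TT naive 0 of the 14 were at least 2-fold higher or lower, near the 2.50% of all genes that were. Their median was -0.14 beside -0.05 over all genes. Apaf1, the scaffold that cytochrome c assembles into the apoptosome, was higher in cTh1. It read 8.61 in nTh1, 9.83 in cTh1, 8.54 in TT naive and 8.84 on the array labelled naive, 1.28 higher in cTh1 than in TT naive and -1.21 in nTh1 over cTh1. It was the 1 gene of the 14 past 2-fold in either comparison, and the 2 comparisons share the cTh1 array. Of all genes 7.24% were that much higher in cTh1 over TT naive and 8.30% that much lower in nTh1 over cTh1. The count of 1 of 14 is thus near the share of all genes.

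Of 10 measured genes of the death receptor route, 1 was at least 2-fold higher in nTh1 than in TT naive and 0 were lower. Of all genes 1.41% were that much higher and 1.09% that much lower. The 1 gene was Fasl, the ligand of the receptor FAS, which read 9.60 in nTh1, 10.12 in cTh1, 7.85 in TT naive and 9.93 on the array labelled naive, and was low in TT naive cells alone. In cTh1 over TT naive 3 of the 10 were higher and 0 lower, where 7.24% of all genes were higher and 3.02% lower. The 3 were Fasl at 2.26, the TRAIL receptor Tnfrsf10b at 1.86 and the cytokine Tnf at 1.19. Tnfrsf10b read 7.64 in nTh1, 9.52 in cTh1, 7.66 in TT naive and 8.15 on the array labelled naive, so cTh1 was high and the thymic arrays were 0.02 apart. In nTh1 over cTh1 Tnf was at -2.02 and Tnfrsf10b at -1.88, and the list median was -0.60 beside -0.08 over all genes.

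Targets of p53 were examined because Bbc3 and Pmaip1 are among the genes p53 is known to activate. In nTh1 over TT naive 0 of 10 that passed the filter were at least 2-fold higher or lower, near the 2.50% of all genes that were. In cTh1 over TT naive 4 of 11 were higher and 0 lower, with a median of 0.62 over the 12 measured beside 0.03 over all genes: the cell cycle inhibitor Cdkn1a at 5.50, Phlda3, an inhibitor of AKT, at 2.18, Perp at 1.40 and Sesn2, a stress-induced brake on mTORC1, at 1.18. Perp, at 5.65 in TT naive, was under the level filter there and passed it only through cTh1. Against the array labelled naive Cdkn1a was at 4.37 and Phlda3 at 1.60, and Perp turned to -1.20, since it read 7.05 in cTh1 and 8.25 on the array labelled naive. In nTh1 over cTh1, 3 of 11 were at least 2-fold lower, where 8.30% of all genes were. These 3 were Cdkn1a at -4.74, Phlda3 at -2.25 and Sesn2 at -1.10.

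Cytokine receptors and kinases that feed survival signals into the family were measured for 11 of 13 listed genes. Il7r, the IL-7 receptor chain, read between 12.65 and 12.78 on the 4 arrays. In nTh1 over TT naive 2 of 11 were at least 2-fold higher, Il15ra at 1.09 and Il2rb at 1.04, the chains that bind IL-15, and 0 lower. Of all genes 1.41% were higher and 1.09% lower there. In cTh1 over TT naive 5 were higher and 0 lower, where 7.24% of all genes were higher and 3.02% lower. The 5 were led by Il2ra, the high-affinity IL-2 receptor chain, at 2.85, and by the survival kinases Pim2 at 2.16 and Pim1 at 2.05. In nTh1 over cTh1 Pim1 was at -2.75, Il2ra at -2.43 and Pim2 at -1.69. IL-2 was added to the cTh1 culture. Of the transcription factors listed as regulators of BH3-only genes, 0 of 9 that passed the filter were at least 2-fold higher or lower in nTh1 over TT naive. In cTh1 over TT naive 0 of 10 were. Of all genes 2.50% and 10.3% were, so neither count stands apart from that share. Foxo1 and Foxo3, whose motif stands in the printed Bcl2l11 sequence, were at -0.05 and -0.07 in nTh1 over TT naive and at 0.15 and 0.31 in cTh1 over TT naive. Ddit3, the stress factor CHOP, was at -1.02 in cTh1 over the array labelled naive, and Egr1 at -1.04 in nTh1 over cTh1. The 5 genes of MCL1 protein turnover, among them the ubiquitin ligase Huwe1 and the kinase Gsk3b, had 0 members at 2-fold in any of the 6 comparisons. The share of all genes at 2-fold ran from 2.50% to 11.8%, so 0 of 5 is near it.

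**Figure D4:**
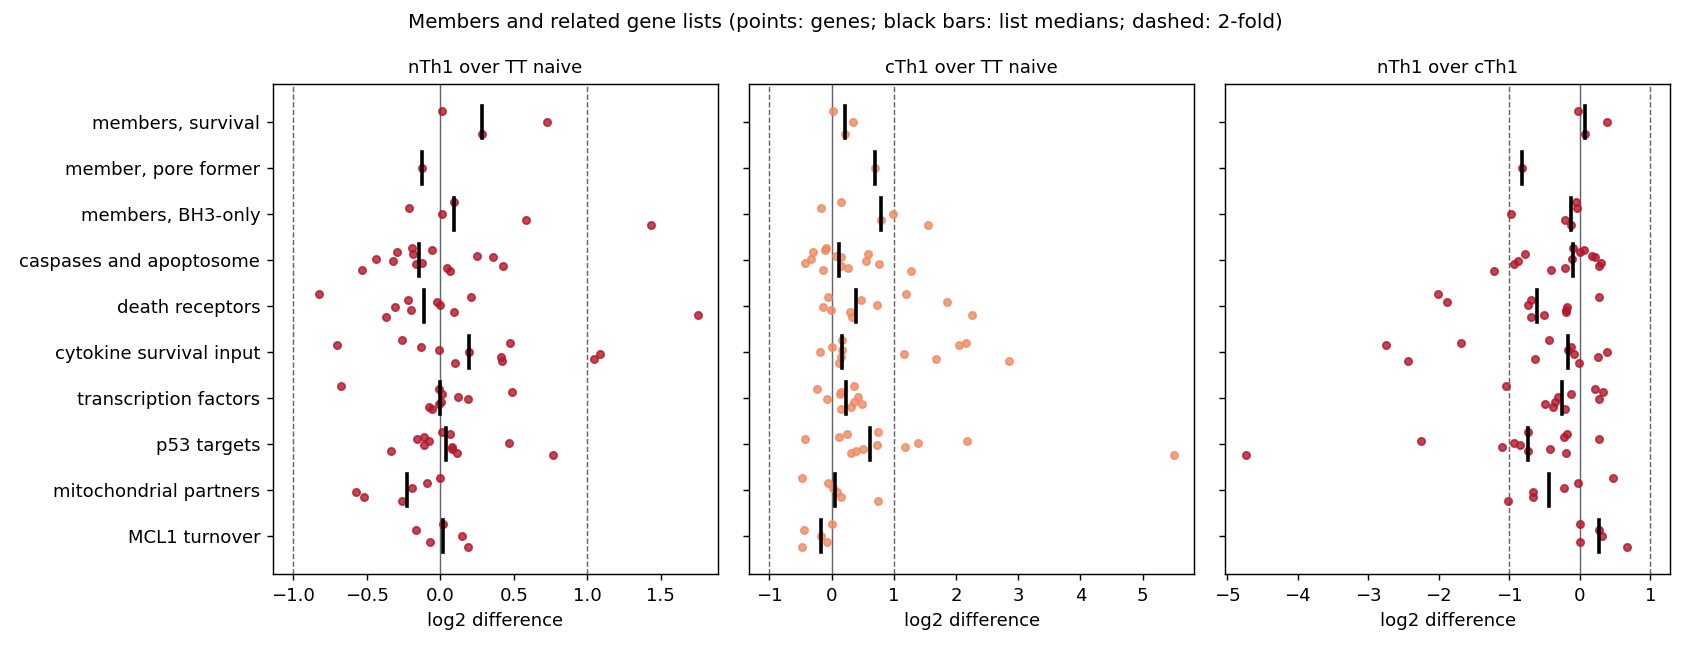
Log2 difference (horizontal axis, scaled to each panel) of every measured gene of the member groups and 7 related lists in nTh1 over TT naive, cTh1 over TT naive and nTh1 over cTh1, with black bars at list medians and dashed lines at 2-fold. The p53 targets have a median of 0.62 in cTh1 over TT naive and 0.04 in nTh1 over TT naive, with Cdkn1a farthest out at 5.50 in the middle panel.

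More distant relatives of the family were also measured. Bnip3, a mitochondrial BH3-like protein known as a hypoxia-induced mitophagy receptor, read 6.66 in nTh1, 10.23 in cTh1, 7.05 in TT naive and 7.02 on the array labelled naive. It was higher in cTh1 by 3.19 against TT naive and by 3.22 against the array labelled naive, and was the 1 distant relative of 4 measured at 2-fold in any comparison. Of 4 measured survival relatives, Bcl2a1c was at -1.26 in nTh1 over the array labelled naive, with a value of 5.55 in nTh1 that is under the level filter, and none reached 2-fold in the other 5 comparisons. The Bcl2a1 genes are near-identical copies whose probe sets are uncertain. Of all genes 2.50% to 11.8% differed by 2-fold, by comparison.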

How the data were processed

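RNA of 4 populations was measured with 1 array each. The authors deposited log2 values. According to the submitters' processing notes they come from RMA, run in version 1.3.1 of the Affymetrix Expression Console. RMA corrects background, equalises the arrays' distributions and summarises probes. The sources used here do not give the genome build, the version of the annotation or the level of summary. The table held 41345 probe sets, and 0 columns stayed unmatched. Names came from the platform's annotation table, in which 23521 probe sets had 1 symbol, 1814 several and 16010 none. Per gene the probe set with the highest mean was kept (22180 genes).

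A gene entered a comparison when either array reached the median of all values (6.61). Log2 differences are the first population minus the second, counted at 2-fold. No test was made, since each group had 1 array, and the number of arrays limits the precision. The members, lists and naming rule were chosen with earlier results of these data known. Named were the members, up to 4 genes per related list past 2-fold in a comparison, up to 2 per marker list, the sort genes and Eif2s3y, and the 3 nearest profiles of the 3 members with the widest range. Other listed genes given with values (Il7r, Foxo1, Foxo3, Bmf, Bik, Vdac2, Vdac3, Mtch2, Opa1, Dnm1l, Itgam, C1qa) or named without values (Huwe1, Gsk3b) were chosen after their values were seen. Promoter windows came from a RefSeq table of GRCm38.p6, used without reference to the array's build. Alternatives were no filter, the 75th percentile as filter, centring, a removed loess trend (span 0.3), the mean of probe sets and a 1.5-fold threshold. Counting was tested on simulated data. Python 3.11.15, numpy 2.4.6, pandas 2.3.3, statsmodels 0.14.6 and matplotlib 3.10.9 were used.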

Additional observations from a re-analysis of the deposited data

Results flagged for a closer look

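Among the named genes, 4 markers differed by at least 2-fold in opposite directions in nTh1 over TT naive and in cTh1 over the array labelled naive. These markers had been named for passing 2-fold in these same data. Of the BCL2 family members only Bcl2l11 reached 2-fold in either comparison, so the rule could flag no other member. The difference between the comparisons was not tested, with 1 array behind each value. Aqp11 was at 2.76 in the thymic and -1.19 in the spleen comparison, 3.95 apart. C1qb was at 2.34 and -1.98 in the same order, 4.32 apart. Eomes was at 1.84 and -2.09, 3.93 apart, and Fcer1g at 1.66 and -1.54, 3.20 apart. The 2 comparisons share no array, and the array labelled naive carries values that go against its label. Bcl2l11 differed in the same direction in both comparisons, by 1.44 and 1.26.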

How the results depend on the processing

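No paired analysis was possible because each population had 1 array. The counts of members at 2-fold stayed as reported in all 6 comparisons with no level filter and with the 75th percentile as filter, which left 5 members. They also stayed with centring, with the loess trend removed and with the mean of probe sets. Wherever a member was counted under these settings, it was Bcl2l11. At 1.5-fold the counts were 2 in nTh1 over TT naive (Bcl2l1 added), 2 in cTh1 over the array labelled naive (Pmaip1 added), 4 in cTh1 over TT naive (Bak1, Bbc3 and Pmaip1 added), 2 in nTh1 over cTh1 (Bak1 and Pmaip1, both lower), 0 in TT naive over the array labelled naive and 3 in nTh1 over the array labelled naive (Bcl2l1 higher and Bak1 lower added), where 8.42%, 21.2%, 24.3%, 27.9%, 10.7% and 19.1% of all genes passed. Of 162 recomputed member differences 0 moved by more than the probe set SD, and the 17 that changed sign were at most 0.06 in size as reported. Those were values of Mcl1, Pmaip1, Bad, Bid and Bcl2l1, so no direction is read from them. Some settings could change little. All 9 members passed the level filter, so leaving it out could not alter their counts. Averaging probe sets could change only the 2 members with more than 1, Bcl2 and Mcl1, and left Bcl2l11 as it was. Centring moved no member difference by more than 0.119, under the smallest probe set SD of 0.257.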

Other observations

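Of the 4 other death-promoting relatives measured, 0 differed by 2-fold in any of the 6 comparisons. That is near the share of all genes, 2.50% to 11.8% by comparison. Bmf, a BH3-only gene linked to the cytoskeleton, read 7.50 in nTh1, 6.85 in cTh1, 6.78 in TT naive and 6.57 on the array labelled naive, and was higher in nTh1 than in TT naive by 0.71. Bik, another BH3-only gene, read 6.76, 7.47, 6.74 and 6.74 in the same order, and was higher in cTh1 than in TT naive by 0.73. Each was thus high on 1 Th1 array, where Bcl2l11 was high on both. Among the mitochondrial partners, the channel genes Vdac1, Vdac2 and Vdac3 were lower in nTh1 than in cTh1, at -1.02, -0.67 and -0.66. Mtch2 was at -0.22 and Opa1 at -0.03, and Dnm1l went the other way at 0.47. The list median was -0.44 beside -0.08 over all genes. Of the 6 partners 1, Vdac1, was at least 2-fold lower and 0 were higher, where 8.30% of all genes were lower and 3.46% higher.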
